A study of Mus musculus with 2 samples.

Results

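The cytosolic ribosomal protein genes encode the protein parts of the large (Rpl) and small (Rps) ribosomal subunits. All protein-coding genes of GENCODE M21 on the mouse build mm10 were taken whose name is Rpl or Rps and a digit, together with Rplp0, Rplp1, Rplp2 and Rpsa, and without the Rps6k kinases. This gave 92 of 21951 protein-coding genes. Of these, 77 carry the name of a standard ribosomal protein, 46 of the large and 31 of the small subunit, and 15 are paralogues, binding proteins or retained copies. Chromatin accessibility was measured by single-nucleus ATAC-seq, in which a transposase cuts and tags open DNA in each nucleus, in kidneys of mouse embryos at E15.5. The Enl-WT library came from Enl+/+; Wt1 GFPCre/+ embryos and the Enl-T1 library from Enl flox-T1/+; Wt1 GFPCre/+ embryos, so both groups carry the Wt1 GFPCre allele, a knock-in that puts EGFP and Cre under the Wt1 promoter and inactivates 1 copy of Wt1. Enl (Mllt1) encodes a chromatin reader of acylated histones, and Cre turns the flox-T1 allele into a form with a small in-frame insertion found in Wilms tumour. Cre acts only in cells that express Wt1 or descend from such cells, which leaves out other cells of the organ. There was 1 library per group, and the number and sex of the embryos in each are not given in the sources used here. No difference between the groups was therefore tested, and every interval below is a 95% interval that covers counting error only.

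Ribosomes are built in the nucleolus from ribosomal RNA and about equal amounts of most ribosomal proteins. These genes are therefore transcribed in nearly all cells and are kept in balance with each other. Their promoters are typically short, rich in CpG and often without a TATA box. Transcription of many of them starts at a C within a run of pyrimidines, and the resulting terminal oligopyrimidine (TOP) tract at the 5′ end of the mRNA lets the mTOR pathway and LARP1 control translation. Accessibility at a promoter is not a measure of RNA, which was not measured in these libraries.

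Promoter sequence from RefSeq (GRCm38.p6, 250 bases before to 50 after the start) was matched to 65 of the 92 genes and to 15694 protein-coding genes. The nearest RefSeq start was within 100 bases of the GENCODE start, at which accessibility was measured, for 55 of the 65. The furthest were Rps25 (575 bases), Rpl35 (493), Rps15a (470), Rplp2 (281) and Rps26 (241). Runs and motifs were read at the RefSeq start, which for such genes is not the start of the accessibility level. A C followed by at least 4 pyrimidines exactly at the start was present in 12 of the 65 (18.5%, exact interval 9.92 to 30) and in 2.17% of all protein-coding promoters. No mitochondrial ribosomal protein gene, proteasome subunit gene or ribosome assembly gene had such a start, and 3.85% of the translation factor genes did. Allowing the C to lie within 5 bases of the annotated start raised the share to 41.5% (27 genes) against 18.8% of all. The starts below are shown because they hold the longest runs (Rpl15, Rpl35, Rps18 and Rps6) or belong to the most and least accessible genes with a run and a peak (Rps21 and Rpl38). Each is 30 bases, 10 before the start and 20 from it, with the pyrimidine run in capitals.
Rpl15, chr14:18270967-18270996, minus strand: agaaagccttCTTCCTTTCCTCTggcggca
Rpl35, chr2:39005112-39005141, minus strand: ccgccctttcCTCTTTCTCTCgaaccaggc
Rps18, chr17:33955646-33955675, minus strand: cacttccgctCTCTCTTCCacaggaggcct
Rps6, chr4:86857348-86857377, minus strand: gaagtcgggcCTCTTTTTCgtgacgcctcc
Rps21, chr2:180257369-180257398, plus strand: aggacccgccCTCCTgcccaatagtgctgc
Rpl38, chr11:114668570-114668599, plus strand: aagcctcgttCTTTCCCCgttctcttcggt

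Of 7 motifs searched on both strands of the promoters, TCTCGCG and CCGGAAG stood furthest above their share in all promoters. TCTCGCG was in 14 of the 65 promoters (21.5%, interval 12.3 to 33.5) against 3.82% of all, 5.8% of mitochondrial ribosomal protein, 9.62% of translation factor, 6.06% of proteasome and 14.3% of ribosome assembly promoters. CCGGAAG, the core of ETS family sites, was in 36.9% (interval 25.3 to 49.8) against 12.6% of all, and in 36.2% of mitochondrial ribosomal protein and 33.3% of proteasome promoters. The other motifs were closer to the background. AAGATGG, the core bound by YY1, was in 13.8% against 6.61% and GGGCGG, an Sp1-type GC box, in 60.0% against 49.5%. CCAAT was in 30.8% against 38.6%, TATAAA in 9.23% against 13.0% and the E-box CACGTG in 7.69% against 8.28%. CCGGAAG and AAGATGG can share the bases AAG, and TCTCGCGAGA reads the same on both strands and counts as 2 overlapping matches. The median GC content was 57.0% against 57.3% for all, while the median observed over expected CpG ratio was 0.868 against 0.614. The 6 promoters with 2 or more matches of TCTCGCG are shown around their first match, with bases of any match in capitals.
Rps19, chr7:24884554-24884583, plus strand: ggtttagccgcTCTCGCGagcactccgaaa
Rpl26, chr11:68901529-68901558, plus strand: cgctccgagacTCTCGCGAGATCTCGCGgc
Rpl10a, chr17:28328523-28328552, plus strand: taacgggcaacTCTCGCGAGAacgcgggct
Rps6, chr4:86857400-86857429, minus strand: ccgccggctgtTCTCGCGAGAacttagagc
Rps28, chr17:33824545-33824574, minus strand: accgcgtgcggTCTCGCGAGAgcgaaagtg
Rpl12, chr2:32961647-32961676, plus strand: gggccagcggtTCTCGCGAGAgctgagctt

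Accessibility overlapped between genes with and without either sequence feature. Levels in Enl-WT ran from 32.77 to 94.78 with TCTCGCG and from 14.31 to 83.91 without it. With a TOP run at the start the median was 40.8 in Enl-WT and 40.59 in Enl-T1, in CPM, the scale described below (11 genes with a peak), and without it 40.43 and 40.17 (50 genes). With TCTCGCG the medians were 42.67 and 42.1 (14 genes) against 38.54 and 40.14 (47 genes). Among all protein-coding genes, those with TCTCGCG had a median of 40.8 and 39.96 CPM and those without it 28.86 and 28.1.

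All 77 standard genes had an accessible peak within 1 kb of the transcription start site (TSS) in both libraries. Over the 92 genes it was 83 in each (90.2%, exact binomial interval 82.2 to 95.4), beside 69.7% of all protein-coding genes in Enl-WT and 67.4% in Enl-T1. Mitochondrial ribosomal protein genes and ribosome assembly genes also had a peak without exception (78 of 78 and 46 of 46), and the proteasome had 39 of 40. The 278 annotated pseudogenes named after a ribosomal protein, processed or not, served as a contrast. Of these, 43 had a peak in Enl-WT (interval 11.4 to 20.3%) and 24 in Enl-T1 (5.61 to 12.6%).

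The 9 genes without a peak were all in the group with other names. Rpl3l, Rpl10l and Rpl39l are paralogues known from muscle or testis. Rps27rt, Rpl9-ps1, Rpl9-ps6, Rpl10-ps3, Rpl36a-ps1 and Rps12-ps3 are intronless copies annotated as protein-coding. The 6 with a peak were Rpl36al, Rpl22l1, Rps27l, Rps19bp1, Rpl7l1 and Rpl36-ps4. Rpl36al, a paralogue of Rpl36a, stood at 48.36 CPM for Enl-WT and 43.76 for Enl-T1, and Rpl22l1, a paralogue of Rpl22, at 43.78 and 43.09. Rps27l, known as a p53 target, had 41.27 and 40.14 CPM, and Rps19bp1, which encodes an Rps19 binding protein, 28.75 and 26.90. Rpl7l1 had 22.26 and 25.68. The copy Rpl36-ps4 was far below them, at 2.44 (2.065 to 2.864) and 2.195 (1.811 to 2.637). Its peaks, centred 1354 and 1402 bases downstream of the TSS, did not overlap it, so these levels are not those of its start. Reads from near-identical copies can be lost or misplaced in alignment, and this was not tested.

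The level of a gene was the sum of counts in each library's own peaks within 1 kb of the TSS, scaled to the counts in the 110706 regions shared by both libraries (CPM). The median of the 83 genes was 40.8 CPM for Enl-WT and 40.29 for Enl-T1, against 28.31 and 27.53 for all protein-coding genes with a peak. Per kb of peak the medians were 40.44 and 44.65 against 25.17 and 27.3. The median of the translation factor genes (42.15 and 39.65) was close to that of the ribosomal protein genes, that of the mitochondrial ribosomal protein genes lower (29.78 and 28.73). The large and small subunits did not separate, with medians of 40.02 and 40.94 CPM in Enl-WT and 39.84 and 42.2 in Enl-T1. The counts at the 83 genes together equalled 0.3472% of the shared counts in each library. Any peaks near these genes that lie outside the shared regions are included in that sum.

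**Figure D1:**
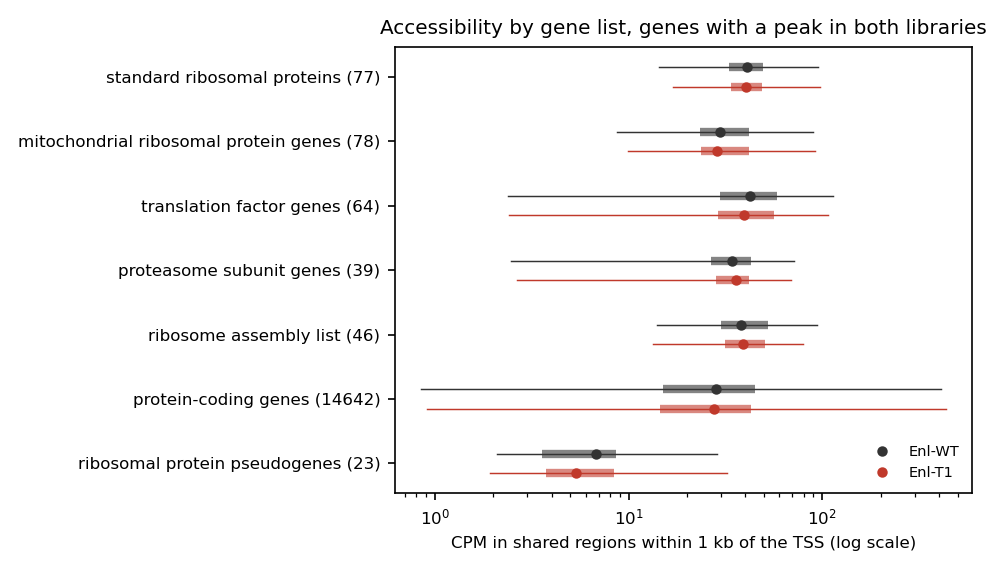
CPM within 1 kb of the TSS (log axis) for genes with a peak in both libraries, by gene list with the number of genes, in Enl-WT (black) and Enl-T1 (red). Points are medians, thick bars quartiles and thin lines the full range. The 77 standard ribosomal protein genes lie at a median of 40.8 and 40.59 CPM, to the right of the median of all protein-coding genes, and the pseudogenes to the left, at 6.806 and 5.324.

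In single nuclei the same order held. With each nucleus thinned to 2000 counts, the median share of nuclei with a count at a ribosomal protein gene was 7.004% in Enl-WT and 6.697% in Enl-T1, against 4.864% and 4.541% for all protein-coding genes. Without thinning it was 22.86% and 15.39%, since the nuclei of Enl-WT were deeper (median 14789.5 against 8753 counts). Rps19 had a count in 15.58% and 15.12% of thinned nuclei and Rps4x in 2.564% and 2.792%.

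Accessibility ranged widely among these genes, most of whose proteins the ribosome holds in about equal amounts. Rps19, whose human counterpart is mutated in Diamond-Blackfan anaemia, was the most accessible at 94.78 CPM for Enl-WT (92.35 to 97.25) and 97.06 for Enl-T1 (94.4 to 99.78). It stood at the 98.4th percentile of protein-coding genes. Rps21 followed with 83.91 (81.63 to 86.24) and 80.17 (77.76 to 82.65), and Rpl13a with 82.60 and 79.56. Rps25, also among the highest by the mean of the libraries, had 62.97 and 68.37. Rps19, Rps21 and Rpl13a stood first in both, and the intervals of Rps21 and Rpl13a overlapped.

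At the low end, apart from Rpl36-ps4, stood Rps4x with 14.31 CPM for Enl-WT (13.37 to 15.29) and 16.93 for Enl-T1 (15.83 to 18.08). Rpl38, known for its part in translating Hox mRNAs in the embryo, had 19.59 (18.5 to 20.74) and 20.72 (19.5 to 22.0). Rpl37a had 20.73 and 22.71, and Rpl4, a core protein of the large subunit, 19.86 and 24.16. In Enl-WT the intervals of Rpl38, Rpl4 and Rpl37a overlapped. The upstream sequence of the 3 highest and 3 lowest standard genes with a long enough stretch free of annotated exons is shown, within 150 bases before the RefSeq start, with matches of the motifs named above in capitals.
Rps21, chr2:180257229-180257376, plus strand: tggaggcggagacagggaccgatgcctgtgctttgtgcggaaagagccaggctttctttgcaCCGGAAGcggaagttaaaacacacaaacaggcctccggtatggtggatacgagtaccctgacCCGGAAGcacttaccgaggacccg
Rpl13a, chr7:45128762-45128895, minus strand: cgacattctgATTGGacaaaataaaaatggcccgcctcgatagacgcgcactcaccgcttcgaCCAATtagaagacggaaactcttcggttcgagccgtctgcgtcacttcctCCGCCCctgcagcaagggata
Rpl37, chr15:5116463-5116612, plus strand: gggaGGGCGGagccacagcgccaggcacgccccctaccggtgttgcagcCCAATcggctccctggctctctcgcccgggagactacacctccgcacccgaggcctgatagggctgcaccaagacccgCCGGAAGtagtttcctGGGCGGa
Rpl37a, chr1:72711110-72711259, plus strand: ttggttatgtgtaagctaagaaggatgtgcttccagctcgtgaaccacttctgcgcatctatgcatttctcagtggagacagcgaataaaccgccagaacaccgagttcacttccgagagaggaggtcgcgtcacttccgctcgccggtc
Rpl38, chr11:114668430-114668523, plus strand: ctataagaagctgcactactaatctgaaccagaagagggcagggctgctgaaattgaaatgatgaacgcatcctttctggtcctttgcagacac
Rps4x, chrX:102189395-102189541, minus strand: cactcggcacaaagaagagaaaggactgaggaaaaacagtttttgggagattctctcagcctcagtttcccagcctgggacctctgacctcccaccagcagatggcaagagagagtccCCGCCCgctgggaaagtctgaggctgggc
These stretches differ in length and cover only part of each promoter. Over the full 300 bases Rpl37a held no motif, Rpl38 held 1 CCGGAAG and 1 GGGCGG, and Rps4x held 2 GGGCGG and 1 CCAAT. Rps21 held 2 CCGGAAG, 1 GGGCGG and 1 CCAAT, so genes of low and of high accessibility both had matches. Over all matched genes 56 of 65 held at least 1 motif within the full 300 bases. The share of all protein-coding promoters with at least 1 motif was not counted, so this number has no background. GGGCGG alone was in 49.5% of them.

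**Figure D2:**
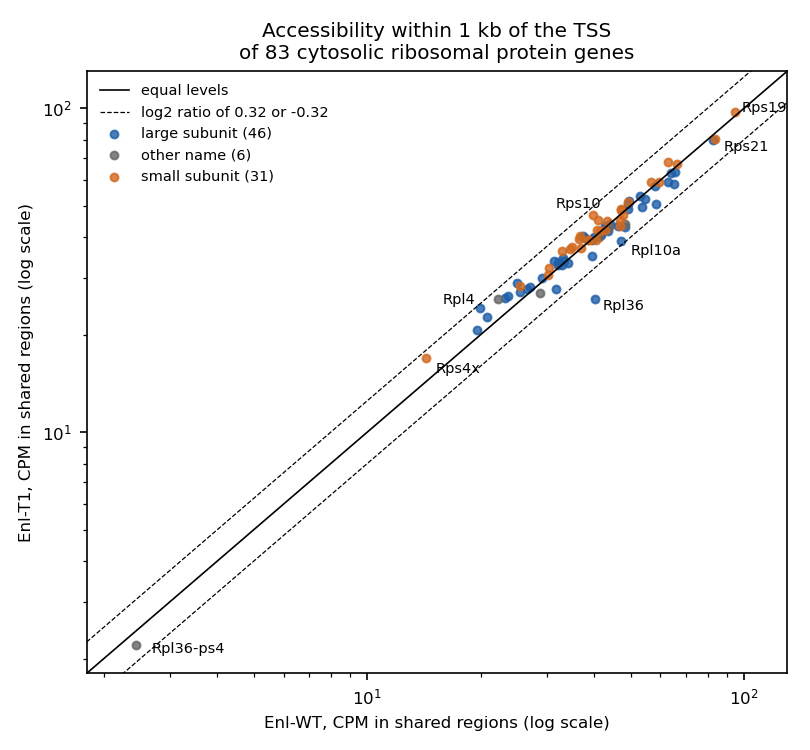
CPM within 1 kb of the TSS in Enl-WT (x) and Enl-T1 (y), both on log axes, for 83 ribosomal protein genes of the large subunit (blue), small subunit (orange) or other names (grey). The solid line marks equal levels and the dashed lines log2 ratios of 0.32 and -0.32. Only Rpl36, at 40.14 and 25.84 CPM, lies beyond them.

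The proteins of the ribosomal stalk, which recruits translation factors, are encoded by Rplp0 (53.49 and 49.54 CPM), Rplp1 (42.88 and 42.62) and Rplp2 (41.61 and 40.59). Rpsa, which encodes a small subunit protein also known as the laminin receptor, had 46.98 and 45.33. All 4 of these genes were above the median of the 83 in both libraries. The 4 X-linked genes were lower, with a median of 26.16 and 27.91 against 41.27 and 40.7 for the 79 autosomal ones. Rpl10 had 37.77 and 39.64 CPM, Rpl39 29.09 and 29.97 and Rpl36a 23.23 and 25.86, with Rps4x below them. The sex of the embryos is not known here, so the number of X chromosomes per nucleus cannot be told apart from the level per chromosome.

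Neighbouring genes can add to the counts. A protein-coding gene starts within 1 kb on the other strand of 11 of the 83 genes: Trappc4 beside Rps25, Nkiras1 beside Rpl15, Vps52 beside Rps18, Med22 beside Rpl7a, Mgat2 beside Rpl36al, Lias beside Rpl9, Ndufa7 beside Rps28, Lrsam1 beside Rpl12, Clhc1 beside Rps27a, Iqcg beside Rpl35a and Zwilch beside Rpl4. Their medians were 39.5 and 40.29 CPM against 40.87 and 40.4 for the other 72. Peak counts do not separate the genes of such a pair. The 30 genes that host snoRNA genes in their introns had medians of 42.14 and 42.64 CPM against 39.91 and 40.03 for the 53 that do not.

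Between the libraries the ribosomal protein genes differed little. The median log2 ratio of Enl-T1 over Enl-WT was 0.016 over the 83 genes and -0.039 over the 14642 protein-coding genes. A gene was counted as higher or lower past a log2 ratio of 0.32 in size, a ratio of 5 to 4 between the libraries. No ribosomal protein gene was past it upwards in Enl-T1, beside 3.63% of protein-coding genes, and 1 was past it downwards, beside 8.21%. The median of the small subunit genes was 0.049, of the large subunit genes 0.004 and of the mitochondrial ribosomal protein genes -0.003. The accessibility of Enl itself (Mllt1) was 51.82 CPM for Enl-WT and 49.27 for Enl-T1; peak counts cannot show the inserted sequence.

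The gene past this threshold was Rpl36, which encodes a protein of the large subunit, with 40.14 CPM for Enl-WT (38.57 to 41.76) and 25.84 for Enl-T1 (24.48 to 27.26), a log2 ratio of -0.64 (-0.73 to -0.54). Enl-WT had 2 peaks within reach of its TSS and Enl-T1 had 1. The additional Enl-WT peak, chr17:56611164-56612438, is centred at -1615 bases from the TSS, does not overlap it and held 13.60 CPM. The peaks over the TSS itself, chr17:56612583-56613970 in Enl-WT and chr17:56612883-56613833 in Enl-T1, held 26.54 and 25.84 CPM, a log2 ratio of -0.04. The peaks over the TSS of Rpl36 were thus within 1 CPM of each other, and the rest of the difference came from the additional Enl-WT peak. Counts exist only in the peaks called in each library, and Enl-T1 had none upstream within reach of the TSS. Accessibility at that place was therefore not compared, and the part of peak calling in the difference was not tested.

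The next lowest ratios were those of Rpl10a at -0.27 (-0.35 to -0.19; 47.08 and 39.01 CPM) and Rpl7 at -0.21 (-0.28 to -0.13; 58.28 and 50.47 CPM). Both encode large subunit proteins, and their Enl-WT peaks were longer, at 1476 against 867 and 1439 against 926 bases. The highest were Rpl4 at 0.28 (0.17 to 0.40), Rps4x at 0.24 (0.11 to 0.38) and Rps10 at 0.24 (0.16 to 0.32), all under the threshold. Rps10, a small subunit gene, went from 39.61 to 46.72 CPM, but Enl-T1 had an additional peak of 5.652 CPM there and the peaks matched by 80% reciprocal overlap had a log2 ratio of 0.05. Its main peak lies downstream of the annotated TSS in both libraries. At Rpl12, also of the large subunit, an additional Enl-WT peak of 5.403 CPM went with a log2 ratio of -0.18, which was 0.03 in the peaks over the TSS.

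Peak length moved with the ratio. Peaks were at least 10% longer in Enl-WT at 33 of the 83 genes (39.8%, beside 43.5% of protein-coding genes), with a median log2 ratio of -0.025. They were within 10% at 48 (57.8%, beside 50.7%), with a median of 0.054. At 2 genes (2.41%, beside 5.86%) they were longer in Enl-T1. Across the 83 genes Pearson's r between the log2 length ratio and the log2 CPM ratio was 0.726 and Spearman's rho 0.549, and across all protein-coding genes 0.652 and 0.571. These describe genes of the same 2 libraries, which share depth and peak calling, and are given without a test. The part of peak length in the ratios was not tested beyond the matched peaks.

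**Figure D3:**
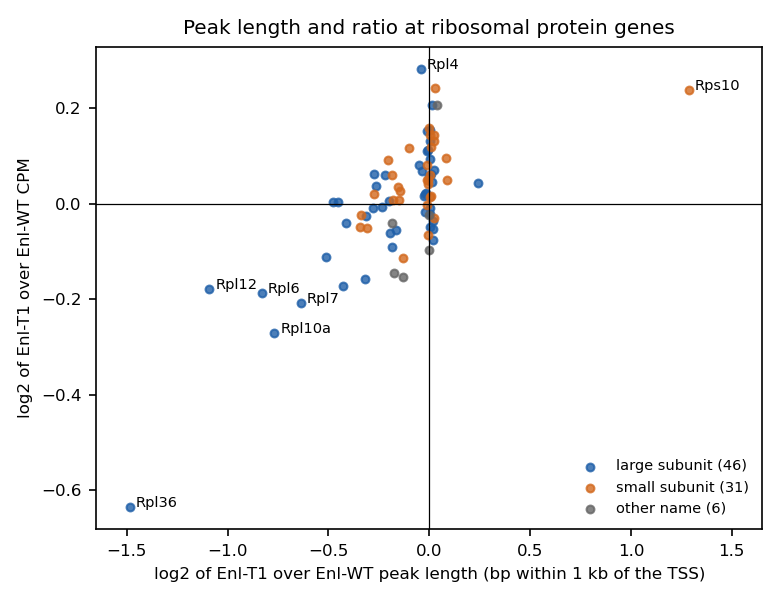
Log2 ratio of peak length within 1 kb of the TSS (x, Enl-T1 over Enl-WT) and log2 ratio of CPM (y) for 83 ribosomal protein genes, coloured by subunit. Rpl36, Rpl12, Rpl10a, Rpl6 and Rpl7, with longer peaks in Enl-WT, lie at the lower left, and Rps10 with an additional Enl-T1 peak at the right.

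Nuclei were clustered without the regions of the ribosomal protein genes and named from marker genes, with 3 to 11 markers raised in each named cluster. The libraries overlapped only in part. In 5 clusters of 675 to 1455 Enl-T1 nuclei there were 1 to 4 Enl-WT nuclei, and there were 353 podocyte-like nuclei of Enl-WT but 1 of Enl-T1. At a clustering resolution of 0.5 the podocyte-like nuclei were 718 and 56, so their number depends on the clustering. In Enl-WT 437 of 9472 nuclei stayed without a name, and in Enl-T1 2236 of 12635. Of the latter, 1455 formed 1 cluster whose leading genes included Csmd1 and Rspo1, as did those of a progenitor or early nephron-like cluster. Of the barcodes, 169 occurred in both libraries as text. The classes compared were progenitor or early nephron-like (2385 Enl-WT and 2850 Enl-T1 nuclei), stroma-like (2955 and 4929), ureteric epithelium-like (880 and 1749) and endothelial-like (706 and 517). Which nuclei carried the recombined allele cannot be seen in peak counts.

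In progenitor or early nephron-like nuclei the ribosomal protein genes had a median log2 ratio of 0.084, against 0.012 for protein-coding genes. Above 0 were 64 of the 83, beside 7496 of 14105 protein-coding genes and 49 of 78 mitochondrial ribosomal protein genes. Of the 83, 3 were past the threshold upwards (background 5.7%) and 1 downwards (background 8.07%). The higher ones included Rps10 (34.40 and 48.01 CPM, log2 ratio 0.48, 0.32 to 0.64) and Rpl24 (20.14 and 25.23 CPM, 0.32, 0.10 to 0.54). Rpl36 (-0.60), Rpl10a (-0.22) and Rpl34 (-0.14) were lowest. In peaks matched by 80% reciprocal overlap Rps10 was at 0.28, under the threshold. The 2 libraries drew this class from different clusters: most Enl-T1 nuclei were in 2 clusters of 1403 and 1243, with 4 and 1 Enl-WT nuclei, and most Enl-WT nuclei in 2 others of 1231 and 1149, with 74 and 130 Enl-T1 nuclei. Within the latter pair the medians of the ribosomal protein genes were -0.001 and -0.009, against -0.042 and -0.007 for protein-coding genes. The medians thus differed by 0.041 in one of these clusters and by -0.001 in the other, from few Enl-T1 nuclei, and the part of the clusters in the class value was not tested. The Enl-T1 cluster of 1403 was named with 3 markers raised, the fewest the naming allowed. The clusters of 1243, 1231 and 1149 had 6, 7 and 5 raised. At a clustering resolution of 0.5, where 4092 Enl-T1 nuclei and 3 Enl-WT nuclei of this class formed 1 cluster, the class medians were 0.11 against 0.026.

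In stroma-like nuclei the median was 0.015 against -0.008, with 1 past the threshold upwards (background 5.73%) and 2 downwards (background 7.01%). Rpl4 was highest, with 20.05 and 25.33 CPM and a log2 ratio of 0.34 (0.14 to 0.54), before Rpl37a (0.26) and Rps9 (0.22). Rpl36 had -0.58, Rpl36al -0.32 (49.71 and 39.76 CPM) and Rpl7 -0.31 (57.99 and 46.87 CPM).

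In ureteric epithelium-like nuclei the median was -0.052, against -0.054, with 1 past the threshold upwards (background 4.79%) and 4 downwards (background 9.8%). Rps27a, which encodes a ubiquitin fused to a small subunit protein, was highest, with 33.53 and 43.98 CPM and a log2 ratio of 0.39 (0.14 to 0.65). Rpl7l1 (0.30) followed, with an interval that included 0. Rpl36 was at -0.63, Rpl22 at -0.41 (59.45 and 44.90 CPM) and Rpl10a at -0.38.

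In endothelial-like nuclei, the class with the fewest nuclei of the 4, the median was 0.024 against -0.035, with 6 past the threshold upwards (background 6.87%) and 5 downwards (background 12.3%). Rpl7l1 went from 21.83 to 33.35 CPM (log2 ratio 0.61, 0.14 to 1.07) and Rps28 from 44.21 to 64.97 (0.56, 0.23 to 0.88), and Rpl6 had 0.44. Rpl10a had 49.92 and 32.61 CPM (-0.61, -1.03 to -0.21), Rpl36 -0.59 and Rpl37a -0.51. Peaks that differ between the libraries in number or length were summed for Rpl36 and Rpl10a in every class, so their return among the lowest ratios is no separate result of each class.

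Of 16 clusters with at least 50 nuclei of each library, 13 had enough counts for a ratio at 20 or more of the ribosomal protein genes. The other 3, among them the immune-like cluster, had 1 to 10 such genes and were left out. Within the 13, the median of the ribosomal protein genes was above that of protein-coding genes in 10. The difference of the medians ranged from -0.047 to 0.094 on the log2 scale, with a median of 0.034. The counts past the threshold depend on the scale and the peaks. With counts scaled to all peaks of each library, 3 genes were past it upwards over all nuclei (3.61%), beside 6.26% of protein-coding genes. In the 4 classes, in the order given above, 9, 2, 7 and 17 were past it (10.8, 2.44, 8.54 and 20.7%), beside 10.3, 8.3, 9.43 and 17.4% of protein-coding genes. Downwards there were 1, 1 and 3 in the last 3 classes, beside 5.09, 5.27 and 5.45%. With matched peaks 1, 0 and 1 were past it downwards in those classes, beside 2.54, 4.59 and 7.9%, and Rpl36, whose 2 Enl-WT peaks have no such match, was not among the genes compared.

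**Figure D4:**
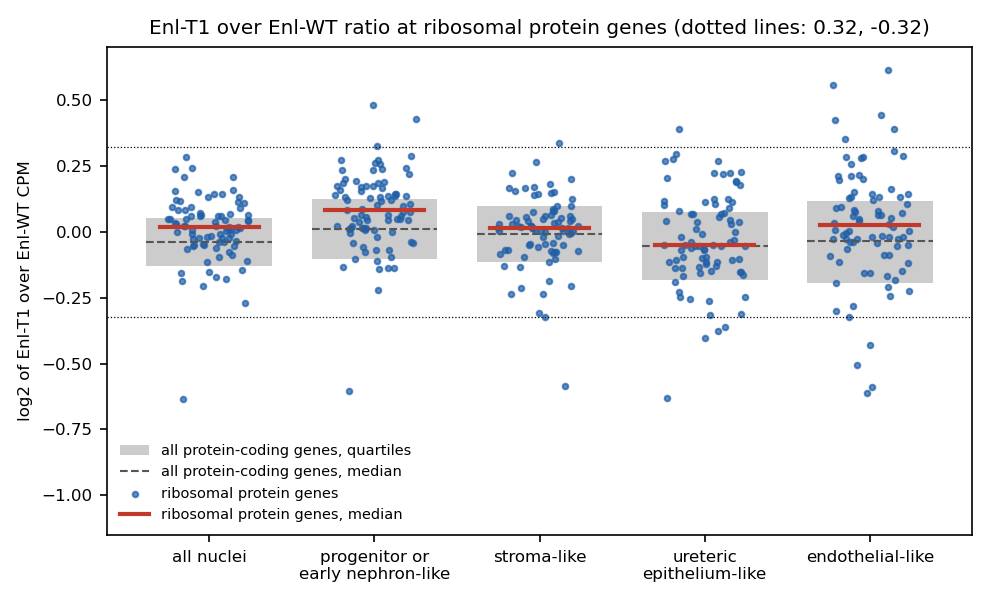
Log2 ratio of Enl-T1 over Enl-WT CPM (y) for each ribosomal protein gene (blue points; horizontal scatter within a column is arbitrary) in all nuclei and in 4 marker-named classes. Red bars are their medians, grey boxes and dashed lines the quartiles and median of all protein-coding genes, dotted lines log2 ratios of 0.32 and -0.32. Medians run from -0.052 in ureteric epithelium-like to 0.084 in progenitor or early nephron-like nuclei, and Rpl36 lies near -0.6 in each column.

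Across classes the ribosomal protein genes varied less than other genes. The median SD of log2 CPM over the 4 classes was 0.131 in Enl-WT and 0.116 in Enl-T1 for the 82 genes with enough counts, against 0.211 in both for protein-coding genes. The mitochondrial ribosomal protein (0.141 and 0.127), proteasome (0.147 and 0.121) and ribosome assembly genes (0.137 and 0.13) were close to them. Counting error alone gives a median SD of 0.079 and 0.0954 at the depth of the 82 genes, and 35.4% and 24.4% of them exceeded 2 times their own counting SD, against 60.0% and 43.9% of protein-coding genes. Among the narrowest were Rpl8, Rpl37, Rpl11 and Rps15a, with mean SDs of 0.0592 to 0.0766. Rpl8 stood between 24.58 and 25.92 CPM in the 4 Enl-WT classes.

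Among the widest were Rps28, Rpl5 and Rpl37a. Rps28, which shares its upstream region with Ndufa7, a gene of mitochondrial complex I, had an SD of 0.183 in Enl-WT and 0.409 in Enl-T1. It was highest in endothelial-like nuclei of both libraries, at 44.21 and 64.97 CPM, and its lowest values were 33.75 in progenitor or early nephron-like Enl-WT nuclei and 35.62 in ureteric epithelium-like Enl-T1 nuclei. Rpl5, which encodes a protein of the 5S particle that can bind Mdm2, was also highest in endothelial-like nuclei in both libraries. Of the 83 genes, endothelial-like nuclei had the highest level of the 4 classes for 54 in Enl-WT (65.1%) and for 53 in Enl-T1 (63.9%), against 42.9% and 42.5% of protein-coding genes. For proteasome genes the shares were 76.9% and 64.1%, for translation factors 68.8% and 64.1%, and for ribosome assembly genes 67.4% and 69.6%. Mitochondrial ribosomal protein genes had 56.4% and 57.7%. The endothelial-like class held the fewest nuclei of the 4, and the part of counting error in this was not tested.

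The immune-like nuclei (103 and 173) stood above all other classes. The median of the 83 genes was 61.62 CPM in the Enl-WT nuclei and 56.33 in those of Enl-T1, against 37.77 to 43.99 in the 4 larger classes. Of the 83, the immune-like level was above that of each of the 4 for 72 in Enl-WT (86.7%) and for 68 in Enl-T1 (81.9%), against 7315 and 7344 of the 14642 protein-coding genes (50.2% in Enl-T1). The proteasome (87.2% and 82.1%) and ribosome assembly genes (82.6% in each) had like shares. Rps19 had 133.5 and 118.0 CPM there, Rps21 113.0 and 108.2 and Rpl13a 108.9 and 98.35, each from 106 to 132 counts. The counts at the 83 genes together equalled 0.5066% (0.4868 to 0.527) and 0.4766% (0.4586 to 0.495) of the shared counts, against 0.3245 to 0.3837% in the 4 larger classes.

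Part of this went with all promoters. Summed gene by gene, counts near the TSS of protein-coding genes equalled 60.1% and 57.1% of the shared counts in immune-like nuclei. In the 4 classes they equalled 45.3 to 50.9%. A peak near several such TSS enters this sum for each gene, and peaks outside the shared regions can enter it, so it is not a strict share. Of that sum, the ribosomal protein genes took 0.843% and 0.835% in immune-like nuclei and 0.701 to 0.778% in the 4 classes. On both bases the immune-like nuclei stood first, while the order of the 4 classes differed: in Enl-WT the endothelial-like class led the 4 by shared counts, and the stroma-like class by promoter counts (0.755% against 0.741%).

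**Figure D5:**
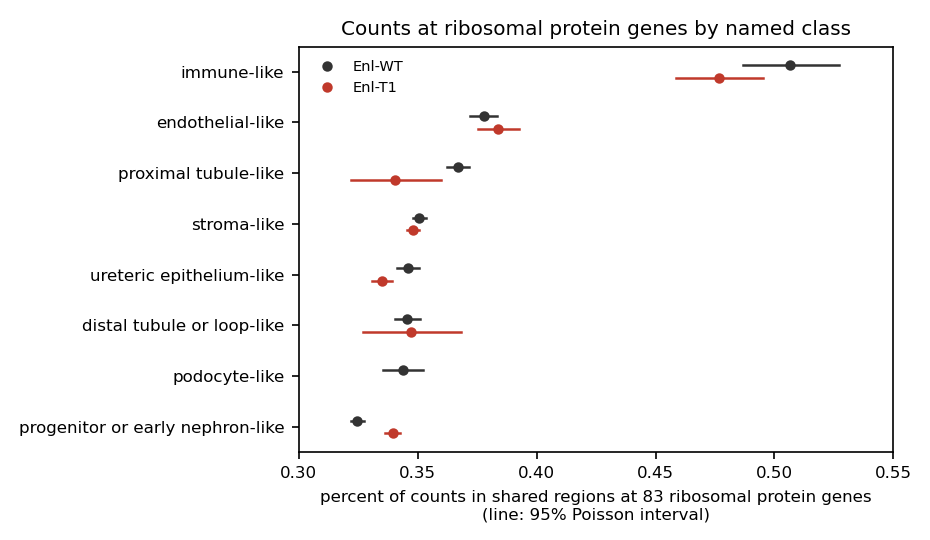
Counts at the 83 ribosomal protein genes as a percent of the counts in shared regions (x, with an axis from 0.3) for each marker-named class (y). Enl-WT is black and Enl-T1 red. Lines are 95% Poisson intervals on fragments, and podocyte-like nuclei are drawn for Enl-WT only. Immune-like nuclei lie at 0.5066 and 0.4766%, to the right of every other class.

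The genes that build ribosomes and control their synthesis were read as a list of 46, from RNA polymerase I subunits and nucleolar proteins to Myc and the mTOR pathway. All 46 had a peak in both libraries, with medians of 38.09 and 38.8 CPM. Over all nuclei their median log2 ratio was -0.036, and 0 of 46 were past the threshold in either direction, beside 3.63% of protein-coding genes upwards and 8.21% downwards. In progenitor or early nephron-like nuclei 4 were past it upwards (8.7%, beside 5.7%) and 0 downwards (beside 8.07%). These were Fbl (0.42), the methyltransferase of box C/D snoRNPs, Mycn (0.37), a transcription factor of nephron progenitors, Lsg1 (0.37), a GTPase of late large subunit assembly, and Polr1a (0.34), the largest subunit of RNA polymerase I. In stroma-like nuclei Fbl (0.37) and Rps6kb2 (0.35), an S6 kinase, were past it upwards (4.35%, beside 5.73%) and 0 downwards (beside 7.01%). In ureteric epithelium-like nuclei Nop2 (0.38) was higher and Eif4ebp2 (-0.35), a translation repressor under mTOR, lower (2.17% each, beside 4.79% and 9.8%). In endothelial-like nuclei 4 of the 45 with enough counts were past it upwards (8.89%, beside 6.87%) and 3 downwards (6.67%, beside 12.3%). With so few genes these shares are near the background. The clusters behind the progenitor or early nephron-like values differ between the libraries as given above, and their part in these ratios was not tested.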

How the data were processed

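Single-nucleus ATAC-seq (10x Genomics) of E15.5 kidney was analysed in 1 library per group. The authors aligned reads and called peaks in each library with Cell Ranger ATAC 2.1.0 on mm10, as named in the submitters' processing notes, and deposited, for each library, the raw count of every barcode in every peak. Most values were 2 (80.1% in Enl-WT and 81.2% in Enl-T1), so 2 counts were taken as 1 fragment in all intervals. The libraries held 159560 and 130027 peaks, 9628 and 13376 barcodes and 138176616 and 110265593 counts. Barcodes with 2000 to 100000 counts were kept (9472 and 12635). The further filters in the study's methods, which need the fragments, were not applied, and doublets were not removed. The study set a higher minimum, in fragments, and kept fewer nuclei of each library, with the larger gap in Enl-T1.

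Peaks that overlapped by at least 1 bp were merged into 110706 shared regions, which held 88.8% and 94.9% of the counts. Intervals were exact Poisson for levels, exact conditional binomial for ratios and exact Clopper-Pearson for shares; ratios needed 200 counts over both libraries. The ratio intervals were tested on simulated data, with no result reported here, so how well they cover in these data is not shown. Clusters (LSI components 2 to 30, 15 neighbours, Leiden resolution 1) were named from marker lists. After the clusters were seen, nephron progenitor and early nephron were joined, leading genes were ranked among those of at least 100 CPM, and clusters below 0.5 of the library's median depth stayed unnamed. Analyses used Python 3.11.15, scipy 1.17.1, scikit-learn 1.9.0 and leidenalg 0.10.2.

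The genes, lists, motifs and comparisons were chosen with earlier results of these data known. Genes named are those without a peak or with other names, the 5 highest and 5 lowest levels, the stalk genes, Rpsa and X-linked genes, the 3 highest and 3 lowest ratios of each comparison and the 5 widest and narrowest spreads. Rpl12 was added after its values were seen, for its additional peak, and genes with printed sequence were chosen by motif and level. Some genes that this rule selects are not reported here. With 1 library per group no test between groups was possible.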

Additional observations from a re-analysis of the deposited data

How the results depend on the processing

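Of 116 alternatives for the summary values, 87 stayed within the interval of the value reported or, for counts, within 1.5 times of it, and 29 moved beyond that. Of 172 for named genes, 163 stayed and 9 moved. No named ratio past a log2 ratio of 0.32 in size changed its sign in these alternatives. Below that size, 3 of 31 medians did: over all nuclei by share of nuclei, and in the ureteric epithelium-like class on both other scales (0.04624 with all peaks, 0.00245 by median of ratios). Of the named genes Rps10 did over all nuclei, by share of nuclei.

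Scaling to the counts in all peaks gave 15 of the 29 and 3 of the 9 moves. Of these counts the shared regions hold 88.8% in Enl-WT and 94.9% in Enl-T1. On that scale the median levels were 36.22 and 38.24 CPM. The median log2 ratios rose to 0.1125 over all nuclei, 0.1693 (progenitor or early nephron-like), 0.08437 (stroma-like), 0.04624 (ureteric epithelium-like) and 0.1663 (endothelial-like), while those of protein-coding genes rose to 0.05731, 0.09729, 0.06135, 0.04379 and 0.1077. The genes past a log2 ratio of 0.32 upwards then numbered 3, 9, 2, 7 and 17 in the same order, and those past it downwards 1 each for the stroma-like and ureteric epithelium-like classes and 3 for the endothelial-like class.

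Scaling by the median of ratios over protein-coding genes gave a median log2 ratio of 0.05521 over all nuclei, 1 lower gene in stroma-like and 4 higher in ureteric epithelium-like nuclei, and SDs over classes of 0.1153 in Enl-WT and 0.1096 in Enl-T1. The share of thinned nuclei gave -0.06509, with -0.1093 for protein-coding genes. Peaks matched by 80% reciprocal overlap left 1 gene past the threshold downwards in the stroma-like class, 0 for ureteric epithelium-like and 1 for endothelial-like nuclei, from fewer genes. The share of nuclei with a count was 14.59% and 13.26% after thinning to 5000 counts, and 22.86% and 15.39% with no thinning. A start within 5 bases gave 27 genes with a TOP run. Beyond the scales, the cause of these moves was not tested.

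Of the named genes, Rpl36 was at -0.04 in peaks over the TSS and -0.21 by share of nuclei. Rps10 was at 0.05 in matched peaks and -0.06 by share of nuclei, and in progenitor or early nephron-like nuclei at 0.28 in matched peaks, under the threshold. On the scale of all peaks Rps10 was at 0.33, Rpl10a at -0.18 and Rpl7 at -0.11, and by share of nuclei Rpl10a was at -0.38.

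Leaving out a replicate was not possible with 1 library per group. No paired analysis was possible because each group has 1 library. Class names were rebuilt here, and several clusters are held almost wholly by 1 library. Depth limits the immune-like, endothelial-like and small shared clusters most.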
